A study of Drosophila melanogaster with 46 samples.

Results

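The genes described here encode the subunits of Polycomb repressive complex 2 (PRC2) and of the Pho repressive complex (PhoRC) of Drosophila melanogaster. They are 10 genes named by symbol, E(z), esc, escl, Su(z)12, Caf1-55, Pcl, Jarid2, pho, phol and Sfmbt, out of 11672 genes present in both fold change tables of the series, and all 10 were found in both tables and on the reference annotation. All had an adjusted p-value in both tables, so none was lost to a filter on low counts. The series held 46 samples of eye discs and embryos, and the files used here come from eye discs of L3 wandering larvae, the larval precursor of the adult eye. ChIP-seq was done in the strain W1118 Oregon-R against PSC, which belongs to the other main Polycomb complex, PRC1, and against Su(z)12 (2 replicates each, about 500 discs per replicate). RNA-seq was done in discs of the strain PCxt109 mutant, titled PcXT109_FRT2A (2 replicates), in ph RNAi discs from the cross of BL 64095 with VDRC50028 (4 replicates), and in white RNAi control discs from the cross of BL 64095 with BL33623 (4 replicates). RNAi is knockdown by RNA interference. About 150 discs were used per RNA replicate.

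The labels leave out which discs served as control for the Pc mutant, which promoter drove the interference, and whether every cell of a mutant disc lacked Pc. FRT sites are used to make mutant clones in otherwise heterozygous tissue, so values for the mutant are averages over discs whose mutant share is not stated. Separate crosses for the replicates are not stated either, so p-values measure the spread between these samples, which may be technical.

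PRC2 is the enzyme that methylates histone H3 at lysine K27, the mark that Polycomb silencing rests on. E(z) is its catalytic subunit, which is active only together with Su(z)12 and with Esc or its paralog Escl. Caf1-55 is a histone-binding subunit that PRC2 shares with other chromatin complexes. Pcl and Jarid2 are accessory subunits of alternative forms of PRC2. Pho and its paralog Phol bind DNA at Polycomb response elements, the sequences that recruit Polycomb complexes, and form PhoRC with Sfmbt, a protein that binds methylated histone tails.

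The targeted genes were lower in both comparisons. Pc fell by 1.64 ± 0.41 (log2, ± SE) in the mutant in the authors' deposited table (DESeq2, adjusted p = 0.00134). The neighbouring paralogs ph-p and ph-d, between which reads may be split, fell by 0.80 ± 0.04 and 0.66 ± 0.05 under ph interference in the authors' deposited table (adjusted p = 1.11e-88 and 6.89e-42). Eye disc markers were present in both tables, with mean normalized counts of at least 339 and 423 for the 10 genes of that list. All 10 were lower in the Pc mutant (median log2 fold change -1.04), and under ph interference 9 were lower and 1, Optix, was higher (median -3.32) in the authors' deposited tables. Of all genes tested, 6.24% were lower in the Pc mutant and 34.9% under ph interference. In bulk discs, fewer cells of a type and less RNA per cell cannot be told apart.

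In Pc mutant discs no PRC2 or PhoRC gene was called. Of the 11297 genes tested, 9.88% were called at an adjusted p under 0.05, 3.64% higher and 6.24% lower. Of the 5763 genes with a mean count in the range of the members, 11.7% were called in either direction and 4.44% were called higher. At an unadjusted p under 0.05, 1 member was reached by the DESeq2 test, esc, against 19.0% of all genes tested. The median log2 fold change of the members was 0.01, beside 0.02 for all genes tested, and the median absolute change was 0.03 beside 0.16. The values of the members lay within the bulk of all genes, as the plot of members among all genes tested shows.

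Among the core subunits, esc, a WD40 protein that holds the enzyme together, had the highest value in the Pc mutant. Its log2 fold change was 0.26 ± 0.10 in the authors' deposited table (DESeq2, p = 0.0115, adjusted p = 0.0944), with a 95% interval from 0.06 to 0.46. E(z) had a value of 0.12 ± 0.07 in the authors' deposited table (adjusted p = 0.372), and Su(z)12 one of 0.07 ± 0.09 (adjusted p = 0.78). The values for Caf1-55 and escl in the authors' deposited table were 0.02 ± 0.08 and -0.07 ± 0.10 (adjusted p = 0.972 and 0.844). The accessory subunits were nearer to 0, with 0.0096 ± 0.08 for Pcl and -0.0010 ± 0.11 for Jarid2 in the authors' deposited table. In PhoRC, Sfmbt had -0.03 ± 0.08, phol -0.02 ± 0.08 and pho 0.0031 ± 0.32 in the authors' deposited table. Leaving aside esc and pho, the 95% intervals of the 8 other members lay between -0.27 and 0.25 on the log2 scale. That of pho ran from -0.62 to 0.62, since its standard error was 0.32 where no other member exceeded 0.11.

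**Figure D1:**
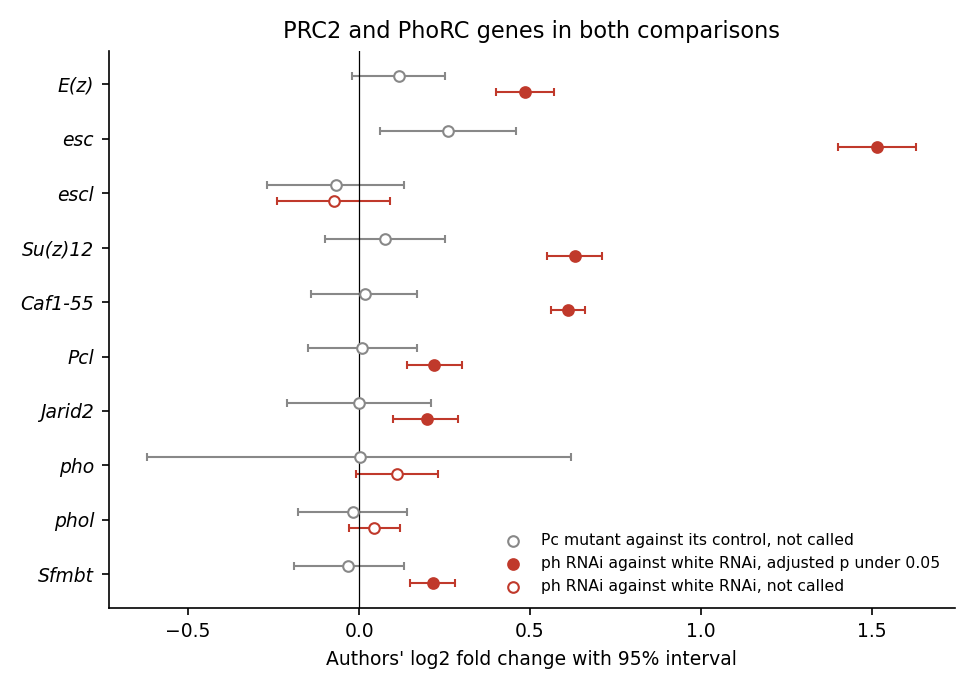
Log2 fold change (x axis) of each of the 10 genes (y axis) in the Pc mutant (grey) and under ph interference (red), from the authors' deposited tables, with bars for 95% intervals and filled points for an adjusted p under 0.05. No grey point is filled, while 7 red points are, with esc farthest to the right at 1.52.

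Under ph interference 7 of the 10 genes rose and none fell. Of the 11009 genes tested, 66.0% were called in the authors' deposited table, 31.1% higher and 34.9% lower. The mean normalized counts of the members ran from 452.4 (escl) to 8768.3 (Caf1-55), and of the 5271 genes with a mean count in their range 81.2% were called and 46.9% were called higher, so that a call alone says little about one of them. The median log2 fold change of the members was 0.22, beside -0.06 for all genes tested, while their median absolute change of 0.22 was below the 0.54 of all genes. Ribosomal protein genes, 84 in number, had a median of 0.38 in this comparison, so that centring on them lowers every value by that shift. As deposited, 7 members were higher and 0 lower. After that centring, 4 were higher and 6 lower. Over all genes the share of calls that were higher went from 47.1% to 19.1% with it.

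Of the 5 core subunits of PRC2, 4 rose and escl was not called. Esc stood first, with a log2 fold change of 1.52 ± 0.06 in the authors' deposited table, a 2.86-fold rise that exceeded the change of 95.8% of genes tested (DESeq2, adjusted p = 1.3e-154). Su(z)12, which the catalytic subunit needs for its activity, rose by 0.63 ± 0.04 in the authors' deposited table, or 1.55-fold (adjusted p = 6.9e-56). Caf1-55 rose by 0.61 ± 0.03 in the authors' deposited table, or 1.53-fold (adjusted p = 3.36e-117). The catalytic subunit E(z) rose by 0.48 ± 0.04 in the authors' deposited table, or 1.40-fold (adjusted p = 1.1e-26). These 4 genes stayed higher after centring on the ribosomal protein genes, at 1.13, 0.25, 0.23 and 0.10, with an adjusted p of 0.0372 for E(z).

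The paralogs esc and escl, which can take the same place in PRC2, did not move together. In the authors' deposited table escl had a log2 fold change of -0.07 ± 0.08 (DESeq2, adjusted p = 0.463), with a 95% interval from -0.24 to 0.09 that lies below the interval of 1.40 to 1.63 for esc. Their mean normalized counts were 452.4 for escl and 973.4 for esc in the authors' deposited table, values that depend on transcript length and so do not rank the genes. After centring on the ribosomal protein genes escl was lower by 0.46 (log2 -0.46, adjusted p = 1.09e-07).

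The accessory subunits and PhoRC had smaller values than the 4 core genes that rose, and their direction depends on the centring. Pcl rose by 0.22 ± 0.04 and Jarid2 by 0.20 ± 0.05 in the authors' deposited table (DESeq2, adjusted p = 7.55e-08 and 0.000138), both 1.15 to 1.16-fold, and both reversed to -0.17 and -0.19 after centring on the ribosomal protein genes. Sfmbt rose by 0.22 ± 0.03 in the authors' deposited table (adjusted p = 9.95e-11) and reversed to -0.17 after the same centring. The DNA-binding subunits were not called as deposited, with 0.11 ± 0.06 for pho and 0.04 ± 0.04 for phol in the authors' deposited table (adjusted p = 0.112 and 0.302). Centred on the median of all genes both were higher (0.17 and 0.11), and centred on the ribosomal protein genes both were lower (-0.27 and -0.34). Centring shifts all genes alike, so the order of the 10 genes is the same in each setting. In that order Su(z)12 and Caf1-55, next to each other after esc, differ by less than their standard errors. The same holds for Pcl, Sfmbt and Jarid2, which follow E(z).

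**Figure D2:**
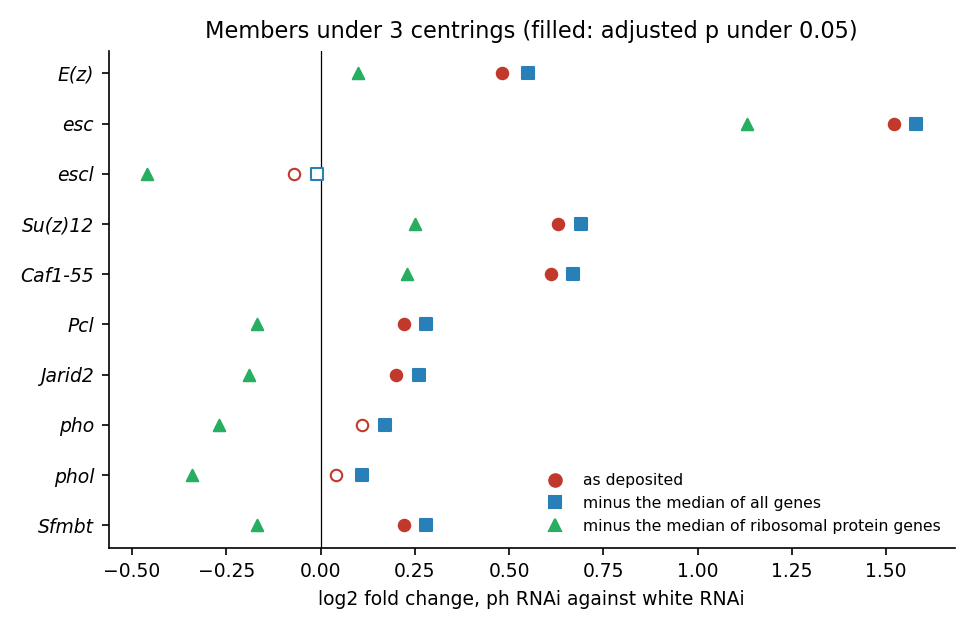
Log2 fold change under ph interference (x axis) of each gene (y axis) as deposited (circles), after subtracting the median of all genes tested (squares) and after subtracting the median of 84 ribosomal protein genes (triangles), with filled marks for an adjusted p under 0.05. Only esc, Su(z)12, Caf1-55 and E(z) lie above 0 in all 3 settings.

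**Figure D3:**
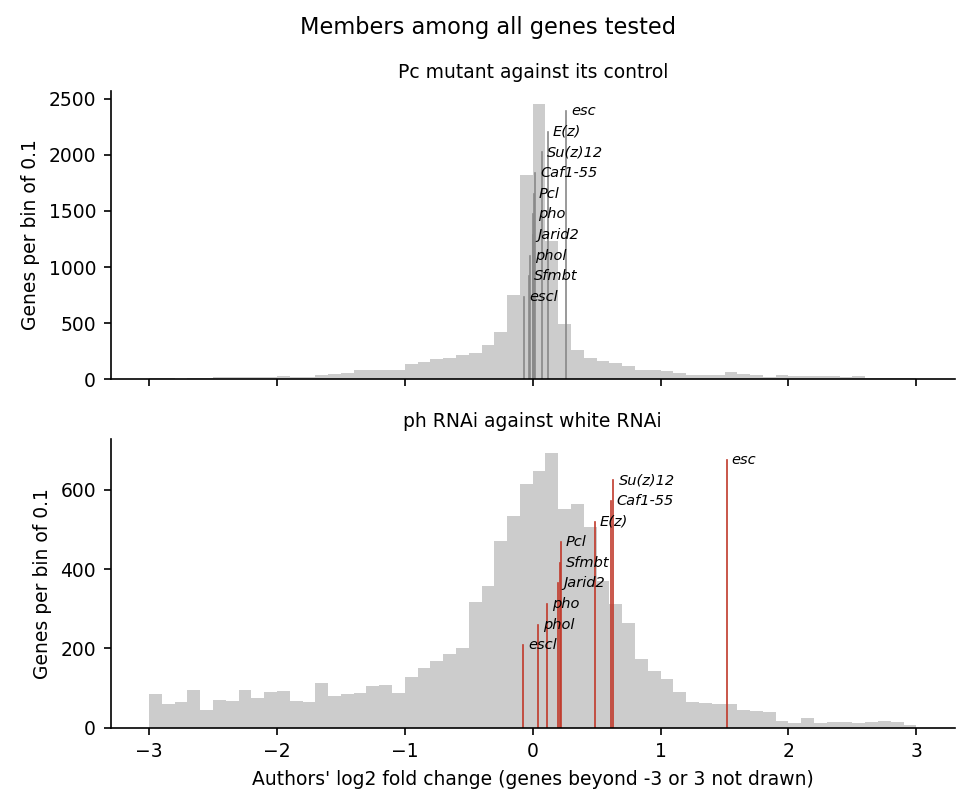
Number of genes per bin of 0.1 in log2 fold change (bars) for all genes tested in the Pc mutant (top) and under ph interference (bottom), with a line at the value of each member. In the top panel the lines lie between -0.07 and 0.26, and in the bottom panel between -0.07 and 1.52.

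The fold changes of 6 members differed between the comparisons, all with the higher value under ph interference. This was tested with a z test of the difference between the deposited log2 fold changes, adjusted over 10588 genes, of which 49.8% passed and 22.4% passed with the higher value under ph interference. It treats the comparisons as having no library in common, which is not stated. The difference (ph minus Pc) was 1.26 ± 0.12 for esc, with 0.26 in the mutant against 1.52 (adjusted p = 3.9e-25). It was 0.59 ± 0.08 for Caf1-55, 0.56 ± 0.10 for Su(z)12 and 0.37 ± 0.08 for E(z) (adjusted p = 1.15e-11, 4.59e-08 and 2.51e-05). Sfmbt and Pcl differed by 0.25 ± 0.09 and 0.21 ± 0.09 (adjusted p = 0.0118 and 0.0401). After centring both comparisons on their ribosomal protein genes 5 members differed. The share of all genes that passed after this centring is not given, so the 5 cannot be set beside it. Of the 6 above, esc, Su(z)12 and Caf1-55 kept the call and E(z), Sfmbt and Pcl lost it. The others were escl (-0.46 under ph interference, -0.14 in the mutant) and phol (-0.34 and -0.09), with the lower value under ph interference. Without centring, the intervals of the difference ran from -0.03 to 0.43 for Jarid2, -0.11 to 0.23 for phol, -0.26 to 0.25 for escl and -0.52 to 0.74 for pho, none of which passed.

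PSC peaks lay at 6 of the 10 genes, and Su(z)12 peaks at none. A peak was counted when a merged peak shared at least 1 bp with the gene or the 1000 bp on either side. By this rule 30.3% of 13911 protein-coding genes had a PSC peak and 10.4% had a Su(z)12 peak, and among the 5618 genes with a span in the range of the members the shares were 33.3% and 10.4%. Peaks of both proteins were found at 9.65% of all protein-coding genes and at no member. Su(z)12 peaks were also absent from the windows in either replicate. All folds and q values of peaks are the authors', and a peak that was not called does not show that the protein was absent.

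The strongest PSC peak belonged to pho, the DNA-binding subunit of PhoRC (chromosome 4, 1172469 to 1181628, dm6). It ran from 1181530 to 1182158, over one end of the gene, with a fold of 2.93 that exceeded 91.2% of merged PSC peaks by rank. Replicate 1 gave a peak of fold 2.67 there and replicate 2 gave a pair of peaks of fold 3.35 and 3.94. No other protein-coding gene lay under this peak.

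Among the PRC2 core genes, Caf1-55 (3R, 15225576 to 15227564) had a PSC peak from 15225347 to 15225602 across one end, with a fold of 2.06 and replicate folds of 2.14 and 2.87. The gene esc (2L, 11827204 to 11829405) lies wholly inside the larger gene Pde1c, and its peak from 11829313 to 11829586 had a fold of 1.96, with the summit 13 bp beyond the gene. That peak was called in replicate 2 (fold 3.33) and not in replicate 1. Su(z)12 (3L, 19918242 to 19923462) had the weakest peak of the 8, from 19923573 to 19923777 with a fold of 1.70, 111 bp past its end. It overlapped the neighbouring gene Pfdn6 and was called in neither replicate alone.

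Pcl (2R, 18135426 to 18139990) had 3 merged PSC peaks in its window, and none touched the gene. The nearest, from 18135152 to 18135400, ended 26 bp before Pcl, had a fold of 1.78 and was called in neither replicate. The others, with folds of 2.17 and 2.45, were called in both replicates and overlapped the neighbouring genes Hsf and pAbp. Sfmbt (2L, 13169649 to 13176785) had a peak of fold 2.35 from 13176687 to 13176968, which also overlapped CG43925 and was called in replicate 2 alone (fold 2.81).

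The remaining 4 genes had no PSC peak in their windows. The nearest merged PSC peak was 1181 bp from Jarid2 (3L, 9477038 to 9486530), just outside the window, and 5856 bp from phol (3L, 9452803 to 9456281). It was 10825 bp from escl (2L, 11990927 to 11992848) and 22776 bp from E(z) (3L, 10634575 to 10638130). The nearest Su(z)12 peak to any member was 5092 bp from the Su(z)12 gene itself, and the farthest was 218294 bp from Sfmbt. The 8 PSC peaks were 205 to 629 bp wide, no summit lay inside a member, and the summits were 13 to 796 bp from the nearer gene end. None overlapped a Su(z)12 peak. The deposited lists give no strand for genes, so which end is the start was not used here.

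**Figure D4:**
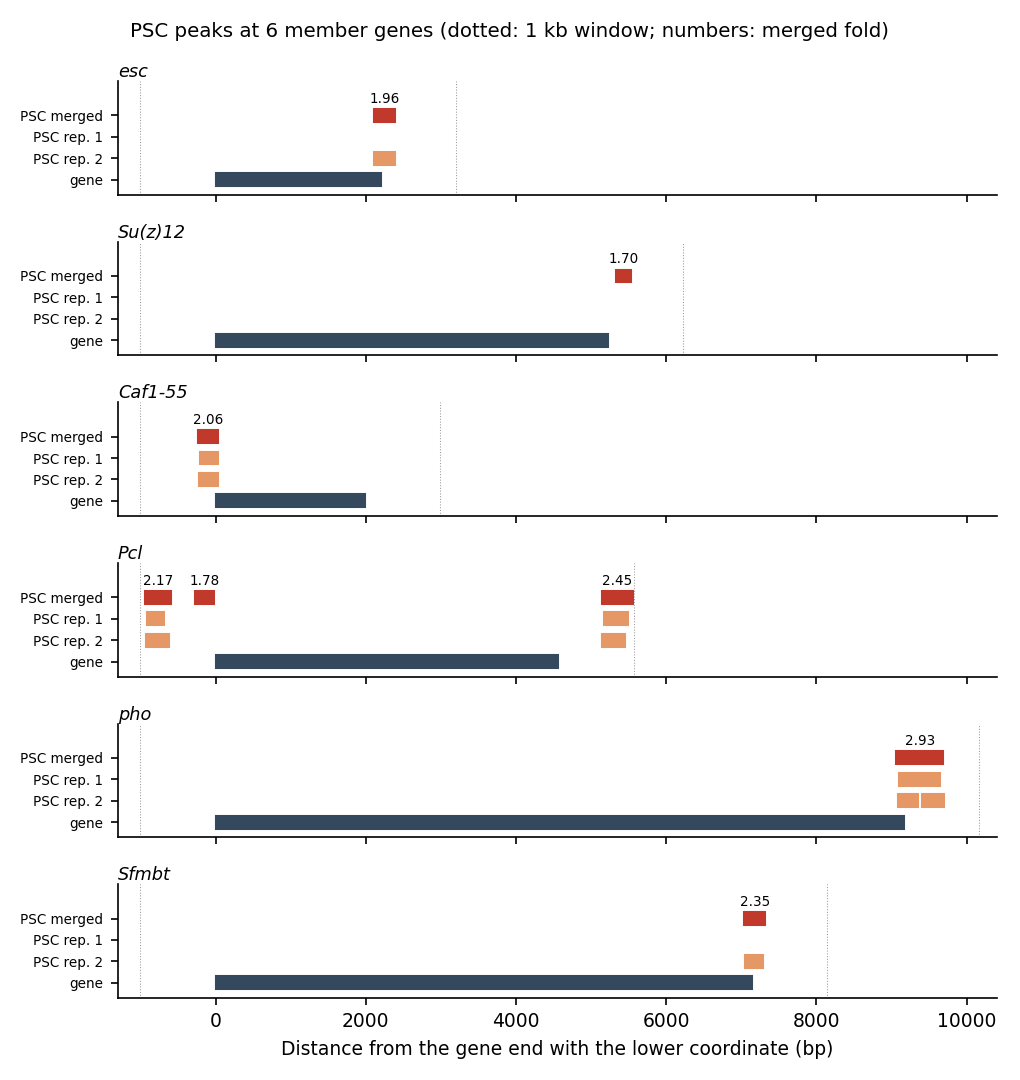
PSC peaks of the merged list and of each replicate (rows) around the 6 members with a peak, by distance in bp from the gene end with the lower coordinate (x axis), with the gene as a dark bar and the merged fold above each merged peak. The peaks sit at or beyond the gene ends, with folds from 1.70 to 2.93. Those of esc and Sfmbt lack a replicate 1 peak. That of Su(z)12 and the Pcl peak of fold 1.78 lack a peak in either replicate.

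The count of 6 rests on the peak list. It was 5 with the list of replicate 2, where 20.8% of protein-coding genes had a peak, and 3 (Caf1-55, Pcl and pho) with that of replicate 1, where 24.9% had one. It was also 3, the same genes, when merged peaks had to overlap a peak in both replicates, where 16.8% of all protein-coding genes had one. For Pcl these were the peaks over Hsf and pAbp, and its nearest peak was not among them. No member had a PSC peak with a fold of at least 3, a level reached at 3.85% of protein-coding genes.

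Of the 6 members with a PSC peak, 5 were called higher under ph interference and 1, pho, was not. Of the 4 without a peak, E(z) and Jarid2 were called higher and escl and phol were not. Among protein-coding genes tested, 35.4% of the 2455 with a PSC peak and no Su(z)12 peak were called higher, and 27.9% of the 6307 with neither. The strongest PSC peak was that of pho. The weakest, called in neither replicate alone and lying over Pfdn6, was that of Su(z)12, which rose by 0.63. Whether the strength of a peak goes with the change of its gene was not tested.

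Several members share their window with other genes, whose reads or peaks could be assigned to either. The library kit was stranded, but whether strand was used in counting is not stated in the sources. Pde1c, which contains esc, moved the opposite way under ph interference, with a log2 fold change of -3.60 ± 0.36 in the authors' deposited table (DESeq2, adjusted p = 4.37e-23). The gene dgt2 overlaps escl by 53 bp and rose by 0.51 ± 0.04 in the authors' deposited table, while escl was not called. An antisense RNA gene, asRNA:CR46256, overlaps Sfmbt by 1139 bp, and without strand the reads of the pair cannot be told apart. At Caf1-55 both flanking genes, Art3 (0.56 ± 0.07) and CG31344 (0.37 ± 0.07), also rose in the authors' deposited table. At Su(z)12 the flanking genes Rpn1 (-0.04 ± 0.03) and Pfdn6 (0.04 ± 0.05) were not called in the authors' deposited table. Of the 18 protein-coding neighbours within 1000 bp that had an adjusted p, 9 were higher and 2 lower under ph interference as deposited. Over all genes tested 31.1% were higher and 34.9% lower there, and 46.9% were higher among genes with mean counts in the range of the members. In the Pc mutant 0 of these neighbours were called, beside 9.88% of all genes tested, and their values lay between -0.20 and 0.23.

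Genes of DNA replication and the complexes that share Caf1-55 were also measured, and many were higher under ph interference. Of 15 DNA replication and cell cycle genes 13 were higher and 1 lower (median 1.12), and 8 and 3 after centring on the ribosomal protein genes. The licensing factor gene dup (1.47 ± 0.03) and the helicase genes Mcm5 (1.51 ± 0.04) and Mcm6 (1.30 ± 0.03) had the highest Wald scores of that list in the authors' deposited table, where their adjusted p is listed as 0. The highest fold change of the list was that of Mcm7 (1.54 ± 0.07), another helicase gene, in the authors' deposited table. Caf1-55 is also part of the histone chaperone CAF-1, and the genes of its large and middle subunits rose by 1.16 ± 0.04 and 1.24 ± 0.06 in the authors' deposited table (adjusted p = 6.99e-224 and 8.21e-90). Both values exceeded the 0.61 of Caf1-55. The nucleosome remodeller Iswi of NURF rose by 0.35 ± 0.02 in the authors' deposited table and was at -0.04 after centring on the ribosomal protein genes. In all, 5 of the 10 partners in CAF-1, NURF and NuRD were higher and 2 lower, and 2 and 7 after that centring. Over all genes tested 31.1% were higher and 34.9% lower as deposited, and 13.2% were higher after that centring. Among genes with mean counts in the range of the members, 46.9% were higher as deposited.

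The dREAM complex, a regulator of cell cycle genes that also contains Caf1-55, had 6 of 7 genes higher and 1, E2f2, lower, and 3 higher and 2 lower after that centring. Dp (0.51 ± 0.03), Rbf (0.51 ± 0.03) and mip120 (0.52 ± 0.04) rose in the authors' deposited table. In the Pc mutant the same lists had 1 higher and 1 lower (replication, Mcm5 at 0.66 ± 0.11 and stg at -0.61 ± 0.13), 0 called (partners of Caf1-55) and 1 higher (dREAM, E2f2 at 0.17 ± 0.06) in the authors' deposited table. Of all genes tested in the mutant, 3.64% were higher and 6.24% lower. The call of E2f2 in the mutant was lost under either centring. What part a different share of dividing cells had in the values of the members was not tested.

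Other Polycomb genes moved in both directions. Of all genes tested under ph interference, 31.1% were higher and 34.9% lower, and 13.2% were higher after centring on the ribosomal protein genes. Of 8 PRC1 genes 3 were higher and 3 lower under ph interference, and 6 were lower after centring on the ribosomal protein genes. As deposited, the lower ones were the targeted genes ph-p and ph-d, and Pc at -0.14 ± 0.07 (DESeq2, adjusted p = 0.0453). Su(z)2 and Psc, related PRC1 subunits, rose by 3.51 ± 0.09 and 1.59 ± 0.07 in the authors' deposited table, and both stayed higher after that centring. Among 8 other Polycomb group and H2A deubiquitinase genes 4 were higher and 3 lower, or 1 and 7 after centring. Mxc rose by 0.66 ± 0.06 while corto fell by 0.41 ± 0.02 and Asx fell by 0.19 ± 0.04 in the authors' deposited table. Of 7 genes for factors that bind Polycomb response elements 4 were higher and 2 lower, or 0 and 6 after centring, with grh at -1.15 ± 0.05, psq at -0.10 ± 0.03 and z at 0.20 ± 0.05 in the authors' deposited table. Of 6 located genes of H3K27 demethylation, acetylation and trithorax methylation, 1 was higher and 2 lower, or 0 and 5 after centring. These were ash2 (0.41 ± 0.04), Utx (-0.29 ± 0.05), the H3K27 demethylase, and trx (-0.31 ± 0.05) in the authors' deposited table. In the Pc mutant these last 3 lists had 0 called genes, beside 9.88% of all genes tested. Among PRC1 genes Su(z)2 was higher there, and ph-d and Pc, the mutated gene, were lower.

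**Figure D5:**
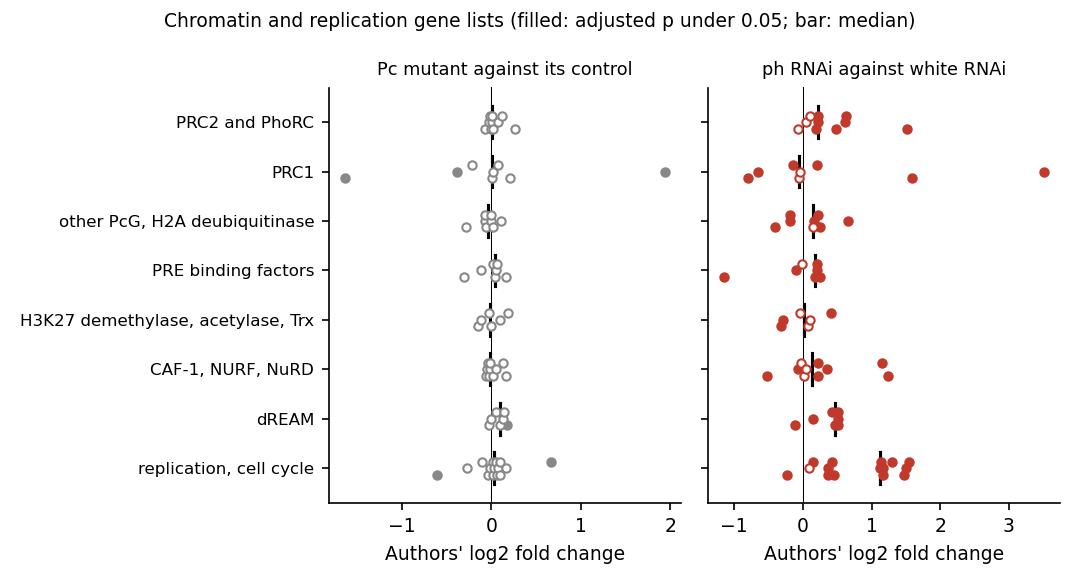
Log2 fold change (x axis) of the genes of 8 lists (y axis) in the Pc mutant (left) and under ph interference (right), from the authors' deposited tables, with filled points for an adjusted p under 0.05 and a bar at the median. On the right the replication list has its median at 1.12, the dREAM list at 0.47 and the PRC2 and PhoRC list at 0.22.

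Lists of genes chosen as markers of other cell types moved in the same tables. Whether eye disc cells themselves express these genes was not tested, so the values do not show which cells changed. Over all genes tested 31.1% were higher and 34.9% lower under ph interference, and 3.64% and 6.24% in the Pc mutant. Under ph interference 8 of 8 haemocyte markers were lower (median -2.97), 7 of 7 brain markers lower (median -4.72), 8 of 10 muscle markers lower (median -1.17), and 0 of 7 fat body markers were called in the authors' deposited table. For glia, 3 markers were higher and 3 lower of 6, and for the germline 2 were higher and 2 lower of 7 tested. In the Pc mutant 9 of 10 muscle markers (median -1.49), 5 of 7 fat body markers (median -1.96), 1 of 8 haemocyte markers, 2 of 6 glia markers, 2 of 7 brain markers and 2 of 8 germline markers were lower, and none was higher, in the authors' deposited table. The median mean normalized count of the muscle markers was 7750 in the Pc comparison and 441 in the ph comparison. For fat body markers it was 1850 and 137, beside 555 and 616 for all genes tested. For haemocyte, glia and brain markers it was higher in the ph comparison, and for germline markers lower. Levels of these lists per group are not in the tables, and their part in the values of the members was not tested.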

How the data were processed

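The submitters' processing notes name the build dm6 and, among others, MACS2 2.1.1.20160309, STAR, HTSeq and DESeq2 1.22.1, with no settings. The deposited fold change tables hold the authors' log2 fold change with its standard error, a Wald score, a p-value and an adjusted p-value, per the file headers. Mean expression is a deposited signal value, the average of normalized counts across a comparison, and sample depths are unknown. The deposited peak lists, per replicate and merged, hold a score (10 times the -log10 q), a fold (the ratio over local background), the -log10 q-value, and a summit, all the authors'. The sources do not state which control library was used.

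Peaks on the 6 main arms were set against gene spans of the RefSeq Release 6 annotation with Python 3.11.15, numpy 2.4.6, pandas 2.3.3 and scipy 1.17.1. The call threshold was an adjusted p under 0.05, as deposited. Intervals are 95% normal intervals from the deposited standard errors. Differences between comparisons were tested with a z test, with Benjamini-Hochberg adjustment over 10588 genes. The code was checked on simulated data drawn with the deposited standard errors and with independent noise. Those data met the assumptions of the test, so the check does not show that the assumptions hold here. The 15 lists hold 129 genes, 2 of which (Wdr5 and Lpp) were not found by symbol. The members and lists were chosen with earlier results of these data known. The text names every member, the genes at their peaks, the targeted genes and up to 3 called genes per list with the smallest adjusted p (ties by the Wald score), with E2f2, Mcm7, Optix, stg and other neighbours of members named after their values were seen. Promoter motifs, protein sequences and levels per length, which had been planned, were not analysed here.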

Additional observations from a re-analysis of the deposited data

Results flagged for a closer look

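The log2 fold changes of 6 members differed between the comparisons by the z test of the difference, which 49.8% of 10588 genes passed, 22.4% with the higher value under ph interference. The control of the Pc mutant is not named in the labels, and the test assumes that no library is shared. The difference, ph interference minus Pc mutant, was 1.26 for esc, 0.59 for Caf1-55, 0.56 for Su(z)12, 0.37 for E(z), 0.25 for Sfmbt and 0.21 for Pcl. The calls of E(z), Sfmbt and Pcl were lost when both comparisons were centred on the ribosomal protein genes. The comparisons differ in the subunit targeted, in how it was targeted and in the number of replicates. They also differ in the share of all genes called (9.88% and 66.0%) and in the mean counts of muscle and fat body markers. These differences cannot be told apart here.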

How the results depend on the processing

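No paired analysis was possible because the deposited tables hold comparisons and no values per sample. For the same reason no RNA library could be left out. In the Pc mutant the count of 0 members held under 6 of 7 alternatives. It was 1 (esc) at an adjusted p under 0.10, where 12.5% of all genes were called. Under ph interference the count of 7 was the same at an adjusted p under 0.01 or 0.10, and when adjusted over all genes with a p-value or over genes whose mean count reached 50. The shares of all genes called in these settings ran from 59.7% to 81.2%. The count fell to 3 (esc, Su(z)12 and Caf1-55) when an absolute log2 fold change of at least 0.5 was also asked for. With that cut 38.5% of all genes were called, and 14.4% were called higher. Centred on the median of all genes it was 9, all higher, beside 66.4% of all genes called and 34.3% higher. Centred on the ribosomal protein genes it was 10, of which 4 were higher, beside 69.1% of all genes called and 13.2% higher. The median of the members under ph interference was 0.28 and -0.17 with these centrings. Values that reversed with the latter were those of Pcl (-0.17), Jarid2 (-0.19), Sfmbt (-0.17), pho (-0.27) and phol (-0.34), by construction, since the shift of 0.38 exceeds their deposited values. In the Pc mutant the same centring moved the share of calls that were higher from 36.8% to 24.3% and changed the call of no member. The count of members that differ between comparisons ranged from 4 (adjusted p under 0.01) to 7 (centred on all genes). The share of all genes that passed is given only for the main setting (49.8%), so the other counts have none to be set beside. The count of members with a PSC peak was 3 to 5 with 1 replicate left out, 3 with peaks found in both replicates, 0 with a fold of at least 3, 4 in the gene body alone (21.7% of all protein-coding genes), 7 within 5 kb (46.8%) and 3 (Caf1-55, Pcl and pho) where the summit had to lie nearest to the member among protein-coding genes, an alternative added after the data were seen. For Pcl that last count rests on the peak of fold 1.78, which was called in neither replicate. No member had a Su(z)12 peak under any of these 8 settings. The share of all protein-coding genes with one ran from 0.899% (fold of at least 3) to 16.5% (within 5 kb), so 0 of 10 members is not far from it. For the setting of the nearest summit no share is given. The mutant had 2 replicates, and standard errors of members there (0.07 to 0.32) were larger than under ph interference (0.03 to 0.08), where 4 replicates were used.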

Other observations

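Standard errors in the Pc mutant were higher on chromosome 4, which carries pho alone among the members, than on the other arms, though the typical value there was below the 0.32 of pho. Among genes whose mean count reached 1000, the 48 on chromosome 4 had a median standard error of 0.168 in the Pc comparison, against 0.096 to 0.10 on the other 5 arms. Under ph interference the medians were 0.051 on chromosome 4 and 0.048 to 0.049 elsewhere. Of 3928 such genes in the Pc comparison, 96.8% had a smaller standard error than pho. The median log2 fold change under ph interference was -0.25 for the 49 genes of chromosome 4 and 0.01 to 0.10 on the other arms, beside 0.11 for pho, in the authors' deposited table.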
